A study of Mus musculus with 6 samples.

Results

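Transcripts of 10 genes of insulin-like growth factor (IGF) signalling were followed in NIH3T3, a mouse embryonic fibroblast line, under serum starvation. They are the ligand gene Igf1, the receptor gene Igf1r, the receptor substrate genes Irs1 and Irs2, and 6 genes for IGF binding proteins, Igfbp2 to Igfbp7. They were chosen by symbol, and all 10 were found among the 16000 genes of the deposited tables. The 3 wild-type libraries (genotype WT) and the 3 libraries labelled Rai16 KO share the cell line and the serum starvation, and no further allele or agent is named. The labels do not say whether the knockout libraries came from 1 clone or several, or whether libraries of a group were separate cultures. An effect of the lesion and a difference between clones therefore cannot be told apart, and p-values cover the spread among these 6 libraries alone, part of which may be technical.

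IGF1 and IGF2 bind the receptor tyrosine kinase IGF1R, which phosphorylates the docking proteins IRS1 and IRS2 and through them activates PI3 kinase, AKT and the RAS-MAP kinase pathway. Binding proteins in the medium and the matrix hold most IGF, and proteases release it from them. In fibroblasts IGF1 is a classical progression factor of serum, and the pathway supports survival when serum is withdrawn.

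Each library held between 16741607 and 18368760 counts. The targeted gene, listed as Fam160b2 (another symbol of Rai16), had 440, 375 and 411 counts in wild type and 410, 394 and 390 in the libraries labelled knockout, and did not pass the test (log2 fold change −0.12 ± 0.075 (SE), adjusted p = 0.184, edgeR). Counts over the whole gene would not show a small lesion, and the groups are those of the labels alone. All 10 fibroblast markers listed were tested: 5 rose (Col1a1, Col1a2, Vim, Thy1 and Lum), 4 fell (Fn1, Dcn, Col3a1 and Pdgfrb) and Pdgfra did not pass. Their summed level was 26157 to 26811 CPM (counts scaled to library size) in wild type and 19962 to 23224 CPM in knockout, with Fn1 falling from 13984 to 9196 CPM. Epithelial, leukocyte and endothelial markers were low, but their sums were higher in each knockout library than in any wild-type library. They were 2.04 to 2.53 CPM in wild type and 4.67 to 5.94 CPM in knockout for 6 epithelial markers, 4.196 to 4.998 and 6.42 to 8.25 CPM for 8 leukocyte markers, and 2.36 to 2.88 and 4.61 to 7.36 CPM for 8 endothelial markers. Krt8, Cd68, Csf1r and Cdh5 passed the test as higher (edgeR), while Esrp1, Adgre1, Kdr and Cldn5 were at 0 outside knockout replicate 2. Csf1r and Cdh5 had counts enough for the test in the knockout group only. In knockout the epithelial sum was mostly Krt8 (4.35 CPM, against 1.05 CPM in wild type). Vwf did not pass. Not all markers of these lists rose: the means of Cdh1, Krt18, Ptprc, Itgam, Fcer1g and Tek, too low to be tested, were lower in knockout. The part of these markers in the results was not tested. The sum of 5 neural markers was 12.9 to 15.5 CPM in wild type and lay between 1.74 and 2.88 CPM in knockout. Most of it was Map2 (13.1 and 1.91 CPM), and Rbfox3, Gfap and Sox10 had at most 2 counts in any library. In such bulk libraries, fewer cells of a type and less RNA per cell cannot be told apart.

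Knockout replicate 2 stood apart from the other knockout libraries. Summed muscle markers (6 of 8 in the tables) reached 86.7 CPM there and at most 1.26 CPM in any other library, and Myog, Ckm and Actc1 were at 0 in each of the other 5. The library also differed by gene length. In the shortest sixth of the tested genes its median log2 difference from knockout replicates 1 and 3 was 0.27, and in the longest sixth −0.29. Across 11972 genes this difference had a Spearman correlation with length of −0.64 against replicate 1 and −0.63 against replicate 3, while that between replicates 1 and 3 was 0.05. The genes share libraries and depth, and these values are descriptions. Results are therefore given with and without this library where it matters. The part of muscle RNA and of the length difference in the results was not tested unless a value is given.

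Of the 10 members, 6 had counts enough to be tested, and 4 (Igf1, Igfbp2, Igfbp3 and Igfbp5) were at or near 0. Of the 6 tested, Irs2, Igfbp4 and Igfbp6 rose in knockout, Igf1r and Igfbp7 fell, and Irs1 did not pass. All changes were under 2-fold, and of all tested genes only 10.9% were called with at least 2-fold change. These 5 calls of 6 stand against 59.6% called of 11972 genes tested (30.5% higher and 29.2% lower; Benjamini-Hochberg adjusted p under 0.05, edgeR). For the same 5 members the CPM of the groups were apart, as for 67.6% of the tested genes, so changes were common among all genes. The median size of the change was 0.44 on the log2 scale among the tested members and 0.32 among all tested genes.

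Levels between genes were compared in FPKM, the authors' fragments per kilobase scaled to library size. Binding proteins stood at the top. In wild type the order was Igfbp6 (269 ± 3.52 FPKM, SD, n = 3), Igfbp4 (49.7 ± 0.877), Igfbp7 (33.2 ± 1.29), Igf1r (22.3 ± 0.577), Irs2 (12.3 ± 0.542) and Irs1 (7.78 ± 0.341), and no libraries of neighbours in this order overlapped. Igfbp6 lay above 98.6% of the tested genes in wild type. In knockout the order was Igfbp6 (359 ± 55.8 FPKM), Igfbp4 (63.0 ± 4.01), Igfbp7 (20.7 ± 3.16), Irs2 (19.7 ± 2.44), Igf1r (16.1 ± 3.005) and Irs1 (9.52 ± 2.01). There the libraries of Igfbp7 and Irs2 overlapped, as did those of Irs2 and Igf1r. Igf1r stood above Irs2 in each wild-type library. Irs2 was above Igf1r within each knockout library, at 20.9 against 18.1 FPKM in replicate 1, 16.9 against 12.7 in replicate 2 and 21.3 against 17.6 in replicate 3. The overlap of this pair came from knockout replicate 2. Without that library Irs2 lay above both Igfbp7 and Igf1r, and the libraries of those 2 genes overlapped.

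**Figure D1:**
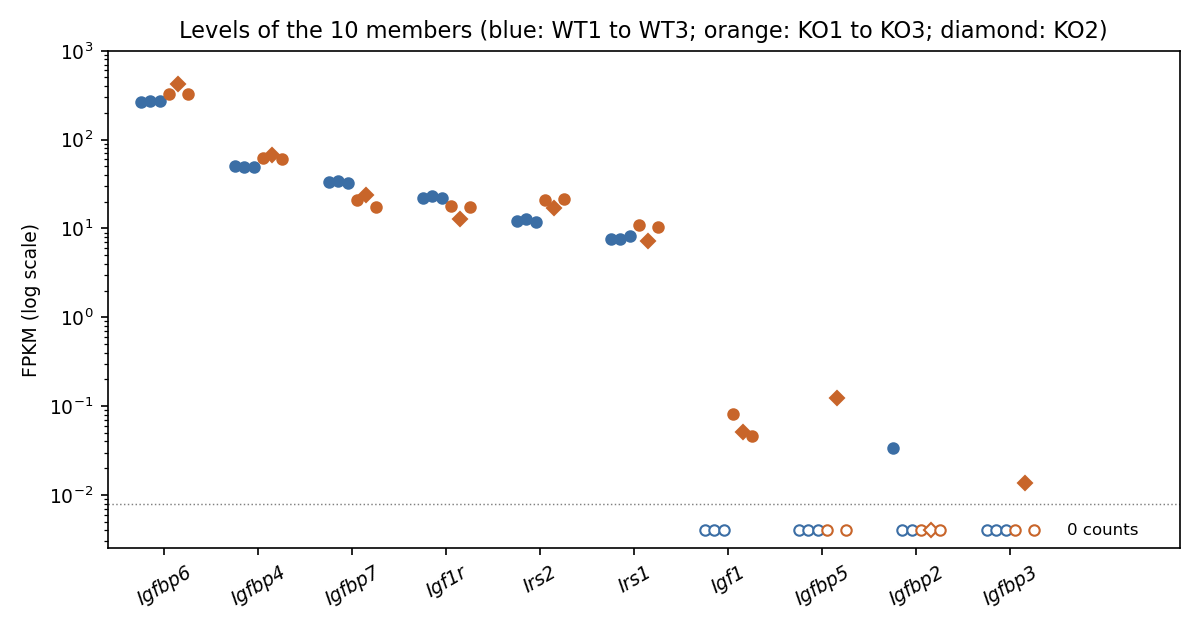
FPKM (log scale) of each of the 10 members in each library, wild type in blue and knockout in orange, with knockout replicate 2 as a diamond and open symbols for 0 counts. Igfbp6 leads in all libraries, 6 members lie above 7 FPKM, and the other 4 lie near or at 0.

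The ligand gene Igf1 was found at a trace level, with counts in the libraries labelled knockout and none in wild type. It had 13 counts in knockout replicate 1, 8 in replicate 2 and 7 in replicate 3, against 0 in each wild-type library. All 3 knockout libraries held counts, and the groups did not overlap. The group level was 0.513 CPM in knockout, and a count of 0 allows up to 0.0584 CPM in wild type (3 counts over the group, counting error only). The knockout level was 8.79-fold above that limit. This value leaves out the counting error of the 28 knockout counts, so it is not a lower bound on the ratio of the groups. The value was 5.83 without wild-type replicate 1 and 5.82 without replicate 3, because the limit is then 3 counts over fewer libraries. Igf1 was too low for the filter of the main test, and with no filter its adjusted p was 0.00207 (edgeR).

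The other ligand gene, Igf2, which is imprinted and acts mainly before birth, went the other way. Its counts were 61, 45 and 63 in wild-type replicates 1, 2 and 3, against 1, 5 and 0 in the 3 knockout libraries in that order. The ratio of wild type to knockout was 29.9 (95% counting interval 13.5 to 82.6, exact binomial; PCR copies are not independent molecules), and 119 without knockout replicate 2, which held 5 of the 6 counts. Its fall passed the test (adjusted p = 4.3e-05, edgeR). Igf2 had counts enough for the test in the wild-type group only. Both ligand transcripts were scarce: Igf2 stood at 0.652 FPKM in wild type and Igf1 at 0.0598 FPKM in knockout.

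Igf1r encodes the receptor that binds both ligands. Its level in wild-type replicates 1, 2 and 3 was 284, 298 and 289 CPM, and in knockout replicates 1, 2 and 3 it was 234, 163 and 229 CPM. Each knockout library was below each wild-type library, and replicate 2 was the lowest. Igf1r fell by 0.48 ± 0.12 (SE) on the log2 scale (95% interval −0.75 to −0.20; adjusted p = 0.00854, edgeR). Without knockout replicate 2 the log2 fold change was −0.33 ± 0.032. It was −0.21 (adjusted p = 0.00232) when a trend on gene length was removed from each library, an alternative chosen after seeing the data. That setting also takes out any length trend between the groups, not that of knockout replicate 2 alone. The median log2 fold change of all tested genes was then 0.06. Igf1r, at a derived length of 12973 bases, is longer than 96.1% of the tested genes, and in knockout replicate 2 it lay 0.51 log2 units below the other knockout libraries, where the median of its length sixth was −0.29.

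Igf2r, the mannose 6-phosphate receptor that takes IGF2 to lysosomes, fell as well, from 787 ± 12.6 CPM to 430 ± 89.8 CPM (log2 fold change −0.87 ± 0.13, adjusted p = 4.92e-04, edgeR). The log2 fold change of Igf2r was −0.71 without knockout replicate 2 and −0.68 with the length trend removed. The insulin receptor gene Insr, whose product can pair with IGF1R, averaged 104 CPM in wild type, and in knockout 103 CPM (log2 fold change −0.02 ± 0.13, adjusted p = 0.904, edgeR). Its means were near each other because of knockout replicate 2, at 79.8 CPM. Knockout replicates 1 and 3, at 112 and 117 CPM, were above the 103 to 107 CPM of wild type. Insr was named after its value was seen.

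**Figure D2:**
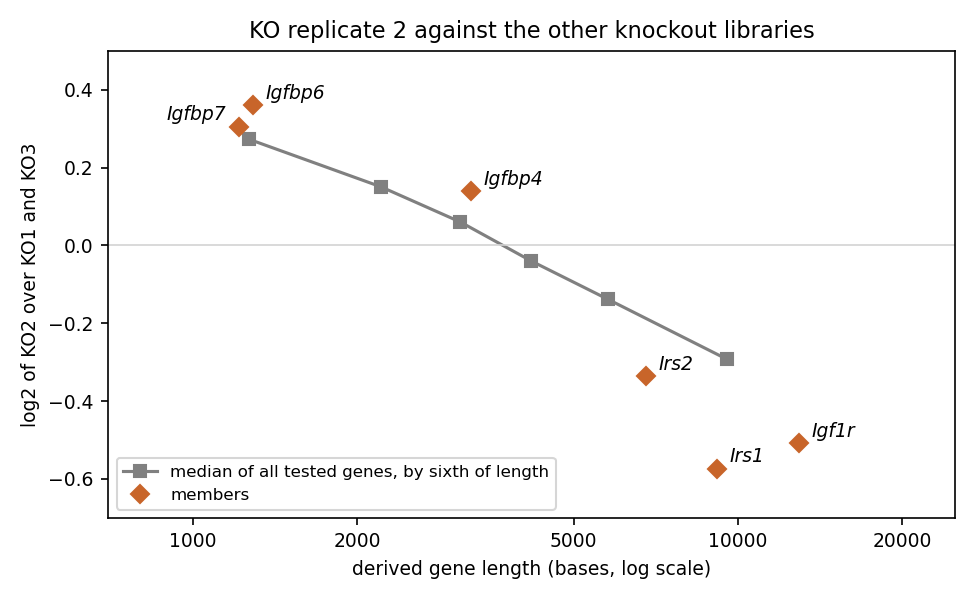
Log2 difference of knockout replicate 2 from the mean of knockout replicates 1 and 3 against derived gene length (log scale), for the 6 tested members and for the medians of all tested genes by sixth of length. The long members Igf1r, Irs1 and Irs2 lie below 0 and the shorter Igfbp4, Igfbp6 and Igfbp7 above it, as the medians do.

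Irs1 and Irs2 encode the docking proteins that carry the receptor's signal to PI3 kinase. Irs2 stood at 83.4, 88.0 and 80.8 CPM in wild-type replicates 1, 2 and 3, and at 142, 114 and 145 CPM in knockout replicates 1, 2 and 3. The groups were apart, with knockout replicate 2 nearest to wild type. Irs2 rose by 0.67 ± 0.094 on the log2 scale (1.59-fold; 95% interval 0.45 to 0.88; adjusted p = 3.13e-04, edgeR). Irs1 stood at 70.5, 69.2 and 75.2 CPM in wild type and at 100, 65.6 and 95.4 CPM in knockout. Knockout replicates 1 and 3 were above all wild-type libraries and replicate 2 below them. With all libraries the difference did not pass (log2 fold change 0.28 ± 0.14, 95% interval −0.03 to 0.59, adjusted p = 0.110, edgeR). Without knockout replicate 2 it was 0.45 ± 0.046 (adjusted p = 3.45e-13), and with the length trend removed 0.48 ± 0.077 (adjusted p = 1.52e-04). Irs1, of 9163 bases, was 0.57 log2 units lower in knockout replicate 2 than in the other knockout libraries, beyond the −0.29 of its length sixth.

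The ratio of Irs2 to Irs1 in FPKM was 1.60, 1.71 and 1.45 in wild-type replicates 1, 2 and 3 and 1.91, 2.33 and 2.05 in knockout replicates 1, 2 and 3. The groups did not overlap, so the balance of the docking transcripts lay further towards Irs2 in knockout, and this includes the libraries without the length difference. This ratio was not tested.

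The promoters of the docking pair are shown because both genes were higher in knockout replicates 1 and 3. The 250 bases before each RefSeq start (GRCm38.p6) were searched on both strands for TGACGTCA and the TGACG it contains (cAMP response elements, bound by CREB), CACGTG (the E-box of USF and TFE3), GTAAACA (the FOXO core) and GGGCGG (the Sp1 core), and capitals mark every match. Irs1 lies on the minus strand at chr1:82291440-82291689 and Irs2 on the minus strand at chr8:11008930-11009179.
Irs1: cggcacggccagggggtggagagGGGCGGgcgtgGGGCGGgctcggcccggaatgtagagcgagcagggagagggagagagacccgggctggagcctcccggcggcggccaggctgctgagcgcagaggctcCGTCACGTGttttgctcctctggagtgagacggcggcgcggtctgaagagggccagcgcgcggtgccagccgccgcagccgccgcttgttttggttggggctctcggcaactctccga
Irs2: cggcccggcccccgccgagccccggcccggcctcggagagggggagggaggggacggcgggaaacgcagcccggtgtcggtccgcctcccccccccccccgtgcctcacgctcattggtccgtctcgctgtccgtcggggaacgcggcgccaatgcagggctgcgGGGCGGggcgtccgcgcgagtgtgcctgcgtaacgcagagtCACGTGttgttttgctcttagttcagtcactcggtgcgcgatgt

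Both promoters held CACGTG, which begins 115 bases before the start in Irs1 and 44 bases before it in Irs2. Of 27025 promoters of the same length, 6.05% held it. In Irs1 it overlaps a reverse-strand TGACG, which 17.9% of promoters held. GGGCGG was found in both, as in 32.9% of promoters, and TGACGTCA (1.62% of promoters) and GTAAACA (3.09%) in neither. All 10 members had a promoter entry. Among them CACGTG was found in Irs1, Irs2 and Igfbp2. A match describes letters only, and its part in the changes was not tested.

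Igfbp6, whose product prefers IGF2 over IGF1, was the most abundant member. It stood at 343, 351 and 351 CPM in wild-type replicates 1, 2 and 3 and at 417, 540 and 425 CPM in knockout replicates 1, 2 and 3. Each knockout library lay above each wild-type library, and replicate 2 was the highest. Igfbp6 rose by 0.40 ± 0.096 on the log2 scale (1.32-fold; 95% interval 0.19 to 0.62; adjusted p = 0.00579, edgeR). Without knockout replicate 2 the rise was 0.27 ± 0.029. Igfbp6 is short, with 8.69% of tested genes shorter.

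The promoter of Igfbp6 is shown because it belongs to the most abundant member. None of the motifs was found in it, nor in those of Igf1, Igfbp3, Igfbp4 and Igfbp5. It lies on the plus strand at chr15:102143936-102144185 (GRCm38.p6), and 49.6% of its bases are G or C. The share was 52.8% in Igf1 and 58.8% in Igfbp5, and 72.4% in Irs1, 72.8% in Irs2 and 69.2% in Igfbp4.
Igfbp6: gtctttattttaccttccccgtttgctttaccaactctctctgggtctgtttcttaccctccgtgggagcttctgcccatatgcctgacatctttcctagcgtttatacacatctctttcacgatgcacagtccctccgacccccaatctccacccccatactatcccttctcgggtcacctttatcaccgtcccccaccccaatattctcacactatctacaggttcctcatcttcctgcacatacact

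Igfbp4, whose product holds IGF until the protease PAPP-A cleaves it, stood at 165, 162 and 159 CPM in wild-type replicates 1, 2 and 3 and at 199, 217 and 195 CPM in knockout replicates 1, 2 and 3. The groups were apart and knockout replicate 2 was the highest, though by less than for Igfbp6. Igfbp4 rose by 0.33 ± 0.061 on the log2 scale (1.26-fold; 95% interval 0.19 to 0.47; adjusted p = 0.00139, edgeR). At 3242 bases it is near the middle of the tested genes in length, with 44.2% shorter, and its value moved little, to 0.28 without knockout replicate 2 and 0.34 with the length trend removed.

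Igfbp7, a relative of the high-affinity binding proteins that binds IGFs weakly and insulin as well, fell most among the tested members. It stood at 40.2, 42.1 and 39.1 CPM in wild-type replicates 1, 2 and 3 and at 25.2, 28.7 and 21.3 CPM in knockout replicates 1, 2 and 3. The highest knockout library was well below the lowest wild-type library. Igfbp7 fell by 0.69 ± 0.10 on the log2 scale (95% interval −0.92 to −0.46; adjusted p = 3.93e-04, edgeR), and by 0.80 without knockout replicate 2. The tested genes with the most similar profile over the 6 libraries, by root mean square difference of mean-centred log2 CPM, were B9d2 (0.044), Chic2 (0.050) and Bbc3 (0.056).

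**Figure D3:**
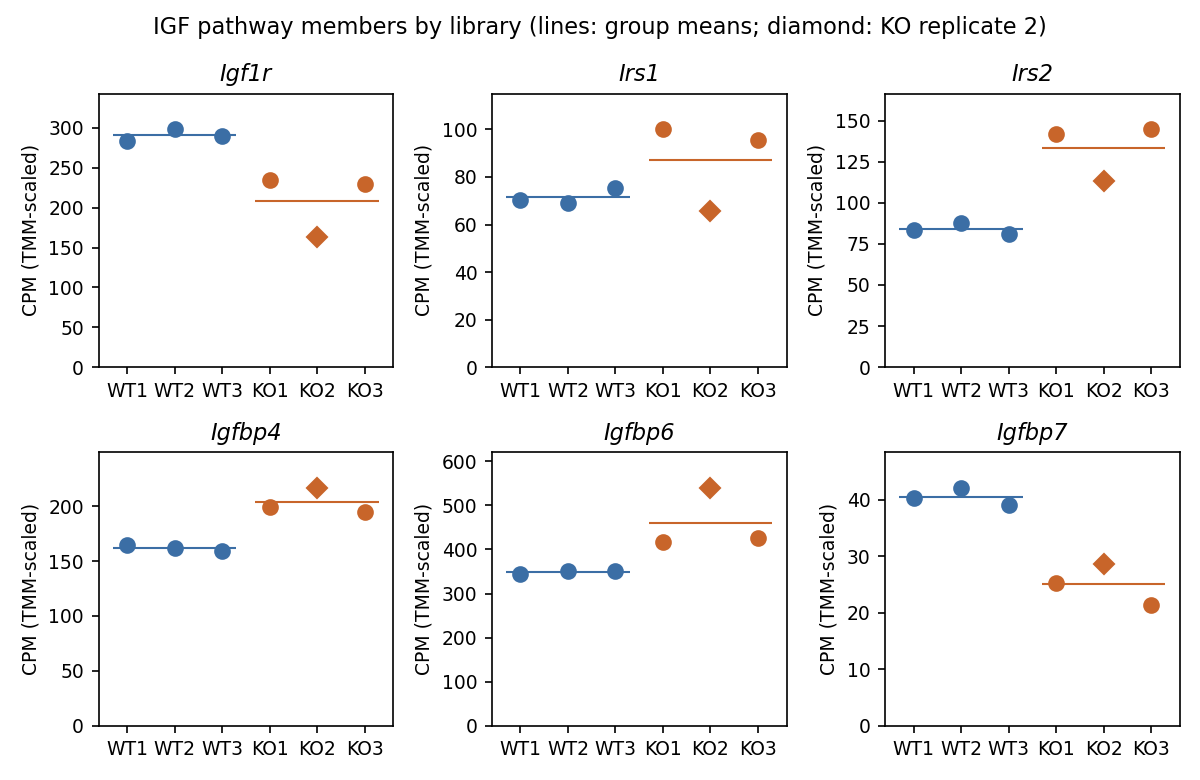
TMM-scaled CPM of the 6 tested members in each library, with lines at the group means and a diamond for knockout replicate 2. Irs1 is the member whose groups overlap, at 65.6 CPM in knockout replicate 2 and 69.2 to 75.2 CPM in wild type.

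The makeup of the binding protein transcripts shifted towards Igfbp6. Its share of the summed FPKM of the 6 binding protein genes was 76.0%, 76.3% and 77.0% in wild-type replicates 1, 2 and 3 and 79.8%, 82.2% and 80.9% in knockout replicates 1, 2 and 3. The share of Igfbp7 was 9.44% ± 0.313 (SD, n = 3) in wild type and 4.69% ± 0.403 in knockout, and that of Igfbp4 was 14.1% ± 0.341 and 14.3% ± 1.06. So the groups were apart for Igfbp6 and Igfbp7, while the Igfbp4 shares overlapped. That overlap came from knockout replicate 2, at 13.1%. Knockout replicates 1 and 3, at 15.1% and 14.8%, were above the 13.9% to 14.5% of wild type. The summed level was 352 ± 3.45 FPKM in wild type and 407, 515 and 406 FPKM in knockout replicates 1, 2 and 3. These shares and sums were not tested.

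The other binding protein genes were at or near 0, so differences in them were not detectable at this depth, apart from the counts given next. Igfbp2, which encodes a binding protein abundant in fetal tissues, had 1 count in all, in wild-type replicate 1. Igfbp3, which encodes the main carrier of IGF in blood, had 1 count in all, in knockout replicate 2. Igfbp5, whose product binds matrix and is typical of muscle and bone, had 13 counts, all in knockout replicate 2 (95% Poisson interval 6.92 to 22.2, counting error only), or 0.708 CPM. In each of the other 5 libraries it was at 0, which allows up to 0.163 to 0.180 CPM. Igfbp5 was thus seen in the library that held the muscle markers: Ckm, the muscle creatine kinase gene, had 405 counts there and 0 elsewhere. The 13 counts of Igfbp5 were then taken as a cut-off, so Igfbp5 is included by construction. Of all genes, 23 including Igfbp5 had at least 13 counts in knockout replicate 2 and at most 1 in the other 5 libraries together. Among them, named after their values were seen, were Myl1 (210 counts), Pvalb (125), Ckmt2 (85) and Mybpc2 (49), all genes of skeletal muscle fibres, and the globin gene Hbb-bs (17). With no filter on low counts, Igfbp5 did not pass (adjusted p = 0.116, edgeR), nor did Igfbp2 (0.470) or Igfbp3 (0.471).

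**Figure D4:**
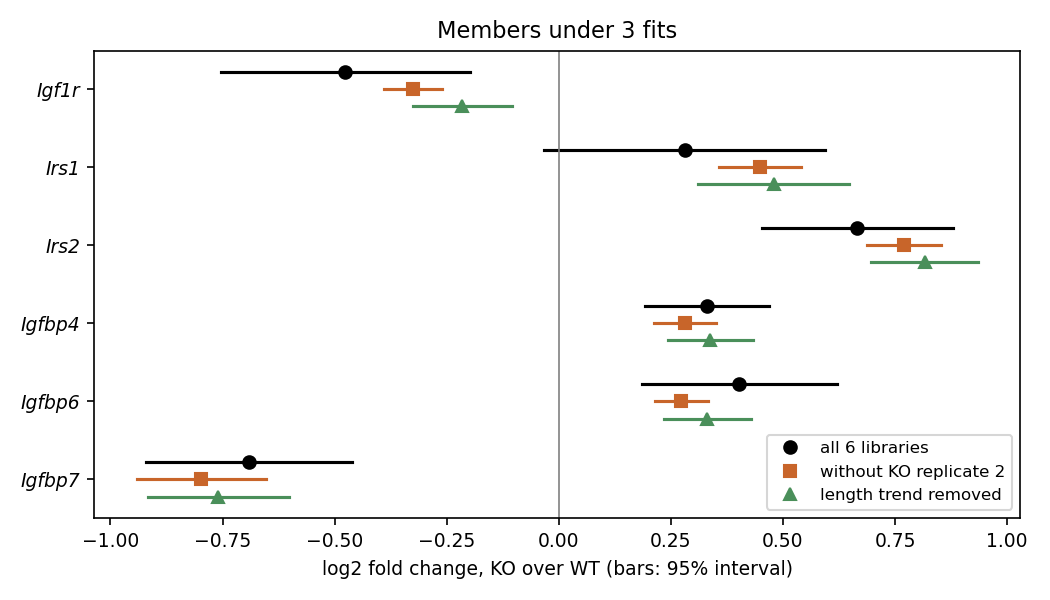
Log2 fold change of knockout over wild type with 95% intervals for the 6 tested members, with all libraries, without knockout replicate 2, and with a length trend removed from each library. The interval of Irs1 includes 0 with all libraries (−0.03 to 0.59), and Igf1r moves from −0.48 to −0.33 and −0.21.

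Other genes of the pathway were counted by role. Of 88 listed, 83 were in the tables and 79 were tested, and 21 rose and 25 fell, 58.2% of those tested against 59.6% of all genes. Without knockout replicate 2 the counts were 32 and 29, against 71.3% called of all genes, and with the length trend removed 36 and 24, against 68.0%. By direction, all tested genes held 3646 rises and 3490 falls with all libraries. These counts were 4323 and 4208 without knockout replicate 2, and 4652 and 3489 with the length trend removed. The median log2 fold change of the pathway genes with all libraries was −0.05, against 0.00280 for all genes tested.

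Among ligands, receptors, carriers and the growth hormone axis, 0 of 7 tested genes rose and 3 fell with all libraries, and 1 rose without knockout replicate 2. With all libraries 42.9% were called, against 59.6% of all genes. Beside Igf2 and Igf2r, the kinase gene Jak2, which acts below the growth hormone receptor, fell by 0.36 ± 0.070 on the log2 scale (adjusted p = 0.0021, edgeR). Jak2 was still called without knockout replicate 2 (−0.29, adjusted p = 3.09e-08, edgeR). Its call was lost with the length trend removed (−0.11, adjusted p = 0.0513). The growth hormone receptor gene Ghr, named after its value was seen, averaged 351 CPM in wild type, and in knockout 334 CPM (adjusted p = 0.266, edgeR).

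Of 11 tested genes for IGFBP proteases and their inhibitors, 5 rose and 3 fell, 72.7% called against 59.6% of all genes. Mmp3, the stromelysin gene, went from 0.235 ± 0.122 to 2.47 ± 0.315 CPM (log2 fold change 3.36 ± 0.34, SE). It had counts enough for the test in the knockout group only. The disintegrin protease gene Adamts1 rose from 39.1 ± 0.896 to 99.8 ± 13.2 CPM, and the secreted serine protease gene Htra1 from 1.42 ± 0.0366 to 3.24 ± 1.31 CPM, with its highest value, 4.74 CPM, in knockout replicate 2. The log2 fold change of Htra1 was 1.19 with all libraries and 0.80 without that library. Stc2, which encodes stanniocalcin 2, an inhibitor of PAPP-A, fell from 21.2 ± 0.603 to 8.24 ± 0.662 CPM. Its target's gene, Pappa, named after its value was seen, fell too, from 46.7 to 27.1 CPM (log2 fold change −0.79 ± 0.18, adjusted p = 0.00539, edgeR). Pappa stood at 30.6, 18.0 and 32.7 CPM in knockout replicates 1, 2 and 3, so replicate 2 was the lowest. The related protease gene Pappa2 (2.18 and 2.11 CPM, adjusted p = 0.891) and Stc1, which encodes the other stanniocalcin (5.95 and 5.39 CPM, adjusted p = 0.459), did not pass.

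Of 24 tested adaptors and receptor-level regulators, 10 rose and 5 fell, 62.5% called against 59.6% of all genes. Those past 2-fold all rose, where 10.9% of all tested genes were called with at least 2-fold change. Socs2, a feedback inhibitor of growth hormone signalling that also binds IGF1R, rose from 2.78 ± 0.167 to 11.3 ± 0.991 CPM (log2 fold change 2.02 ± 0.13, SE). Grb14, an adaptor that inhibits the insulin receptor kinase, rose from 43.4 ± 1.45 to 134 ± 12.3 CPM, and Dok4, an IRS-related docking gene, from 4.10 ± 0.162 to 9.19 ± 0.351 CPM. Grb10, the relative of Grb14, was named after its value was seen and did not pass (466 and 501 CPM, adjusted p = 0.283, edgeR). Knockout replicates 1 and 3, at 529 and 536 CPM, lay above the 462 to 470 CPM of wild type, and replicate 2, at 439 CPM, below.

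Among 34 tested genes of PI3 kinase, AKT, mTOR and FOXO, 52.9% were called against 59.6% of all genes, and 5 rose and 13 fell. This split moved to 11 and 15 without knockout replicate 2 and to 15 and 13 with the length trend removed, so the share of falls among the calls changed with both settings. With the length trend removed, the calls of all tested genes also moved towards rises, from 3646 rises and 3490 falls to 4652 and 3489. Pik3cb, a catalytic subunit of PI3 kinase, fell from 80.1 ± 3.06 to 34.8 ± 1.93 CPM (log2 fold change −1.20 ± 0.065, SE). Deptor, an inhibitor of mTOR, fell from 21.1 ± 1.54 to 10.5 ± 1.72 CPM, and Rictor, the defining subunit of mTOR complex 2, from 179 ± 1.21 to 89.96 ± 20.4 CPM. Without knockout replicate 2 these changes were −1.16, −0.90 and −0.81 on the log2 scale.

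Of 3 genes for proteins that bind Igf2 mRNA, Igf2bp3 rose from 77.9 ± 4.23 to 121 ± 6.01 CPM and Igf2bp2 fell from 398 ± 1.24 to 349 ± 16.0 CPM. Igf2bp1 did not pass with all libraries (69.2 and 74.8 CPM, adjusted p = 0.239, edgeR). Knockout replicates 1 and 3, at 78.2 and 79.8 CPM, lay above the 68.2 to 70.8 CPM of wild type. Knockout replicate 2, at 66.4 CPM, lay below it. Without that library Igf2bp1 was called higher, so 2 of the 3 genes rose and 1 fell. The same split was found with the length trend removed.

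**Figure D5:**
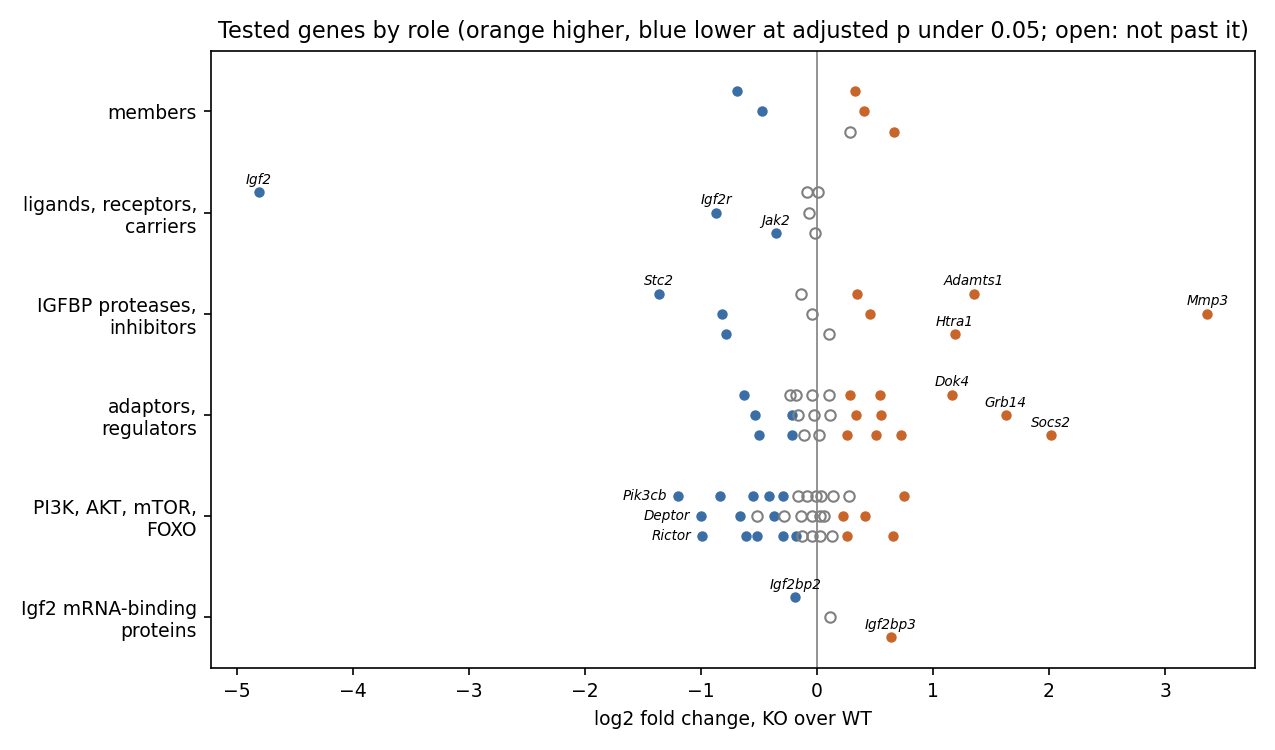
Log2 fold change of knockout over wild type for the 6 tested members and the 79 other tested pathway genes by role, filled where the adjusted p was under 0.05 in edgeR. Igf2 lies far below the rest at −4.81 and Mmp3 above at 3.36, while all tested members lie within −0.69 and 0.67.

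The nearest tested genes on the chromosome are given for each member, to be read beside the 30.5% higher and 29.2% lower among all tested genes. Around Igf1r, the 20 nearest tested genes held 0 rises and 12 falls, with a median log2 fold change of −0.34, and around Irs2 they held 12 rises and 1 fall, with a median of 0.32. Both members had the sign of their neighbours' median. Irs1 had the opposite sign: its 20 neighbours held 1 rise and 17 falls, with a median of −0.72, beside its own 0.28. Igfbp6 had the opposite sign too, at 0.40 beside a median of −0.05. Igfbp4 and Igfbp7 had the sign of their neighbours' medians, 0.14 and −0.13. Igfbp2 and Igfbp5, which lie next to each other, shared 20 neighbours with 0 rises and 15 falls. Around Igfbp4 there were 10 rises and 4 falls, around Igfbp6 4 and 7, around Igfbp7 3 and 9, around Igf1 6 and 6, and around Igfbp3 6 and 5. The calls around Igf1 and Igfbp3 were split nearly evenly. No window was tested. Gene order came from RefSeq (GRCm38.p6), while the counts were made on another build, and the part of regional shifts in the members' values was not tested.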

How the data were processed

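The authors deposited a table of raw read counts per gene and a table of FPKM for the same 16000 genes. The build GRCm39 and the tools HISAT2, HTSeq, Cufflinks, Trimmomatic and DESeq are listed per the submitters' processing notes, and per the labels' protocols a stranded mRNA kit (TruSeq) was used. Versions and settings, strand included, were not given in the sources used here, so reads of overlapping antisense genes may be included. The deposited FPKM equal the count over the library total and 1 length per gene within 8.04e-05%. That derived length is the one used here. Both deposited tables also list NCBI gene numbers.

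Genes passing filterByExpr (11972) were tested, after TMM scaling, by the quasi-likelihood test of edgeR 4.0.16 under R 4.3.3 for the difference between the groups, Benjamini-Hochberg adjusted over all of them and called under 0.05. SEs were the size of the log2 fold change over the root of its F statistic. The biological coefficient of variation was 7.76%. Replicate pairs differed beyond sampling noise (chi-square per degree of freedom 1.71 to 29.0). Alternatives used limma 3.58.1, DESeq2 1.42.0, other filters and scalings, a replicate block and omission of each library. Members, lists and rules were chosen with earlier results of these data known. Named pathway genes are, per list, the called genes with at least 2-fold change or the 3 largest called changes, at most 6.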

Additional observations from a re-analysis of the deposited data

How the results depend on the processing

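Igf1r, Irs2, Igfbp4, Igfbp6 and Igfbp7 kept their direction and their call under all 14 alternatives. Their log2 fold changes ran from −0.57 to −0.21, 0.60 to 0.82, 0.28 to 0.36, 0.27 to 0.47 and −0.80 to −0.59. Irs1 passed under 2 of 14, at 0.45 without knockout replicate 2 and 0.48 with the length trend removed, and ranged from 0.17 to 0.48. It was not called by DESeq2 or limma. Leaving out 1 library in turn, the knockout level of Igf1 over its wild-type limit ran from 5.82 to 9.78 and the Igf2 ratio from 20.2 to 119. Members called numbered 5 or 6, pathway genes 38 to 61 (46 with all libraries) and all genes 6005 to 8531 (7136). Pairs of neighbours in the order of levels whose libraries overlapped numbered 2, and 1 without knockout replicate 2 (Igfbp7 and Igf1r). With 5 in place of 10 neighbours on each side, the medians were −0.12 for Igf1, 0.22 for Irs2, 0.31 for Igfbp4 and −0.47 for Igfbp6 (−0.05, 0.32, 0.14 and −0.05 with 10), and for Igfbp3 the sign turned from 0.11 to −0.10. The cause was not tested.

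Deviations of same-numbered libraries from their group means had correlations of −0.07, −0.09 and 0.02. Those of differently numbered libraries ran from −0.08 to 0.11. With 3 libraries per group, these values cannot settle whether replicate numbers pair the samples. With the replicate block 5 members, 43 pathway genes and 6692 genes in all were called. The count of 0 to 13 in 4 members limits what these depths can show of them.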
